A study of Homo sapiens with 12 samples.

Results

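The sensors that pass mitochondrial or ER stress on to translation were followed at the mRNA level as 8 genes, chosen by symbol: EIF2AK1, EIF2AK3, EIF2AK4, OMA1, DELE1, EIF2S1, EIF2B5, and PPP1R15B. All 8 were found once each among the 60708 genes of the count tables, and all 8 passed the filter on low counts in both comparisons. RNA-seq was performed on HCT116, a human colon cancer line of epithelial origin, labelled wild-type in every sample. Cells were cultured for 24 h with oligomycin A (OA), which blocks the ATP synthase of mitochondria, with tunicamycin (TN), an inhibitor of protein N-glycosylation, or with DMSO. OA and TN each had 3 biological replicates and 3 DMSO replicates of their own, so that no control was shared among the 12 libraries. The labels give 5 µg/mL for both agents, whereas the text of the paper gives a higher OA concentration, so the OA dose is uncertain. All values come from 1 cell line at 1 time point, and they are mRNA levels, not protein, phosphorylation, or cleavage.

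Phosphorylation of eIF2α, the regulatory subunit of the factor that carries the initiator tRNA to the ribosome, lowers general translation and favours translation of ATF4 mRNA. Each kinase that adds this phosphate answers a different signal: EIF2AK3 (PERK) spans the ER membrane and senses unfolded proteins, EIF2AK4 (GCN2) senses amino acid shortage and stalled ribosomes, and EIF2AK1 (HRI) senses heme shortage and binds DELE1. OMA1 is a protease of the mitochondrial inner membrane that cleaves DELE1 when mitochondria are disturbed, and a DELE1 fragment in the cytosol then activates EIF2AK1. EIF2S1 encodes eIF2α itself, EIF2B5 encodes the catalytic subunit of the exchange factor that phosphorylated eIF2 blocks, and PPP1R15B directs a phosphatase to remove the phosphate.

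RefSeq promoter windows were available for 7 of the 8 genes, EIF2AK1 not being among them, and the 250 bases before the RefSeq start were searched on both strands for the letters of known stress elements. The elements were the ATF4-type element CARE (TGATGNAA), the ER stress elements ERSE and ERSE-II, an XBP1-type element (TGACGTGG), and CCAAT, which is also the start of ERSE. Neither ERSE, ERSE-II, nor TGACGTGG, held by 0.0806%, 0.0513%, and 0.667% of 27305 promoters of the same length, was present in any of the 7 windows, which bears only on these letters in these windows. CCAAT was present in 3 of the 7 windows, against 33.0% of those promoters, and EIF2AK3 held 4 matches, at -232, -194, -139, and -53 from the start. TGATGNAA was present in 1 window, that of PPP1R15B, at -227 to -220, against 3.19% of all promoters. The EIF2AK3 and EIF2S1 windows are printed because those mRNAs differed most from DMSO, and that of PPP1R15B because it alone held the ATF4-type letters. They lie at chr2:88627465-88627714 on the minus strand, chr14:67360078-67360327 on the plus strand, and chr1:204411818-204412067 on the minus strand of GRCh38.p14, and each is written 5′ to 3′ on the strand of its gene. Capitals mark the matches to CCAAT or its complement ATTGG and to TGATGNAA.
EIF2AK3: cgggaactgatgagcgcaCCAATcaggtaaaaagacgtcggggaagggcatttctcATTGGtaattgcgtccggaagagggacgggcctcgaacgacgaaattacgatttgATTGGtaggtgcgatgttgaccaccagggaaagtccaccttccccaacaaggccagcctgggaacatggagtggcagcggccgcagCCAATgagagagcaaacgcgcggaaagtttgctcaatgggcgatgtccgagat
EIF2S1: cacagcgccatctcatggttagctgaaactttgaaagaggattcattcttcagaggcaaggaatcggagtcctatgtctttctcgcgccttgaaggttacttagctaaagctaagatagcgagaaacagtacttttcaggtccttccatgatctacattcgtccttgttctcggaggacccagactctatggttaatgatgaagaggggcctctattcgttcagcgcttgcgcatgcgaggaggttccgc
PPP1R15B: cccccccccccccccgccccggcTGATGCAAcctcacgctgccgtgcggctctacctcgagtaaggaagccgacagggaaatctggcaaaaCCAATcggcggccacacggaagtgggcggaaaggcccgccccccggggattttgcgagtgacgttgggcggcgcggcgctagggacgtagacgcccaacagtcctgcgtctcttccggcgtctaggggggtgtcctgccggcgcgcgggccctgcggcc
Such a match is a description of letters, not of a bound site.

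The libraries held between 9884124 and 24983573 counts, and the 8 genes had between 75 counts, for OMA1 in OA replicate 2, and 5293 counts, for EIF2S1 in a DMSO library. The 5 markers of epithelial cells, EPCAM, KRT8, KRT18, KRT19, and CDH1, summed to between 4070 and 8490 CPM (counts scaled to an effective library size of 1000000) in every library, whereas 4 leukocyte markers reached at most 0.594 CPM, and 3 endothelial markers at most 1.45 CPM. CDH1 alone of the epithelial markers passed the test, 3.5-fold higher after OA (adjusted p = 0.0271, edgeR) and 3.23-fold higher after TN (adjusted p = 0.00677, edgeR), and KRT18 passed as well after TN with the replicate block. The 4 fibroblast markers summed to 1.19 to 2.19 CPM with DMSO and 3.84 to 12.4 CPM with OA, 2 of them at 0 in all OA libraries. In the TN comparison they summed to at most 3.5 CPM with DMSO and 4.11 CPM with TN, and their part in the results was not tested. RN7SL1, the RNA of the signal recognition particle, took from 6.02% to 8.11% of the counts in the DMSO libraries and from 8.40% to 17.9% in the treated ones. OA replicate 2, with the highest RN7SL1 share, and TN replicate 1 stood apart from the other replicates of their groups, with a chi-square per gene of 87.6 to 196 and of 104 to 111 against them, compared with 42.5 and 6.25 between the others. Of the DMSO libraries of TN, replicate 1 stood apart, with 71 and 73.7 against 7.34 between the others, and those of OA differed by 20.8 to 101. In 10 of the 12 libraries, the deviation from the mean of the group followed the GC content of genes, with Spearman coefficients across 14049 genes from -0.702 to -0.38 or from 0.516 to 0.71, whereas replicate 3 of OA and of its DMSO had 0.0345 and -0.0915. Fits with GC offsets are given below where they change a call or a direction. The part of RN7SL1 in the values below was not tested.

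EIF2AK3 was the only one of the 8 genes that passed the edgeR test against DMSO, and it did so after TN but not after OA. EIF2AK3 mRNA was 2.36-fold higher after TN and 1.96-fold higher after OA, while EIF2S1 mRNA was at 0.527 and 0.544 of its DMSO level. The mRNAs of the mitochondrial relay, OMA1 and DELE1, of the kinase they act on, EIF2AK1, and of EIF2AK4, EIF2B5, and PPP1R15B had intervals that included no change in both comparisons. At an adjusted p under 0.05 in edgeR, 0 of the 8 genes were called after OA, against 4.48% of 14681 tested genes (2.76% higher and 1.72% lower), and 1 of 8 after TN, against 6.99% of 14432 (3.65% higher and 3.34% lower). At an unadjusted p under 0.05, the counts were 2 of 8 after each stressor, against 23.3% and 24.3% of all tested genes, while DESeq2 called 2 of 8 after OA, against 13.1% of all genes with an adjusted p, and 1 of 8 after TN, against 15.0%. With the replicate numbers as a block, taken as pairs for TN, edgeR called EIF2AK3 higher and EIF2S1 lower after TN, against 11.8% of all tested genes higher and 15.3% lower. EIF2AK1, EIF2B5, and PPP1R15B were also lower in 3 of 3 TN pairs, with adjusted p of 0.22, 0.0929, and 0.271 in edgeR with the block. The share of all tested genes that were lower in every pair was not counted. Treated and DMSO libraries did not overlap for 2 of the 8 genes after each stressor, EIF2AK3 and EIF2S1, against 31.8% of all tested genes after OA and 32.6% after TN. Apart from the direction within pairs, for which no such share is at hand, these counts are within 1 gene of the shares of all genes. None of them is a result about the 8 genes as a list.

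**Figure D1:**
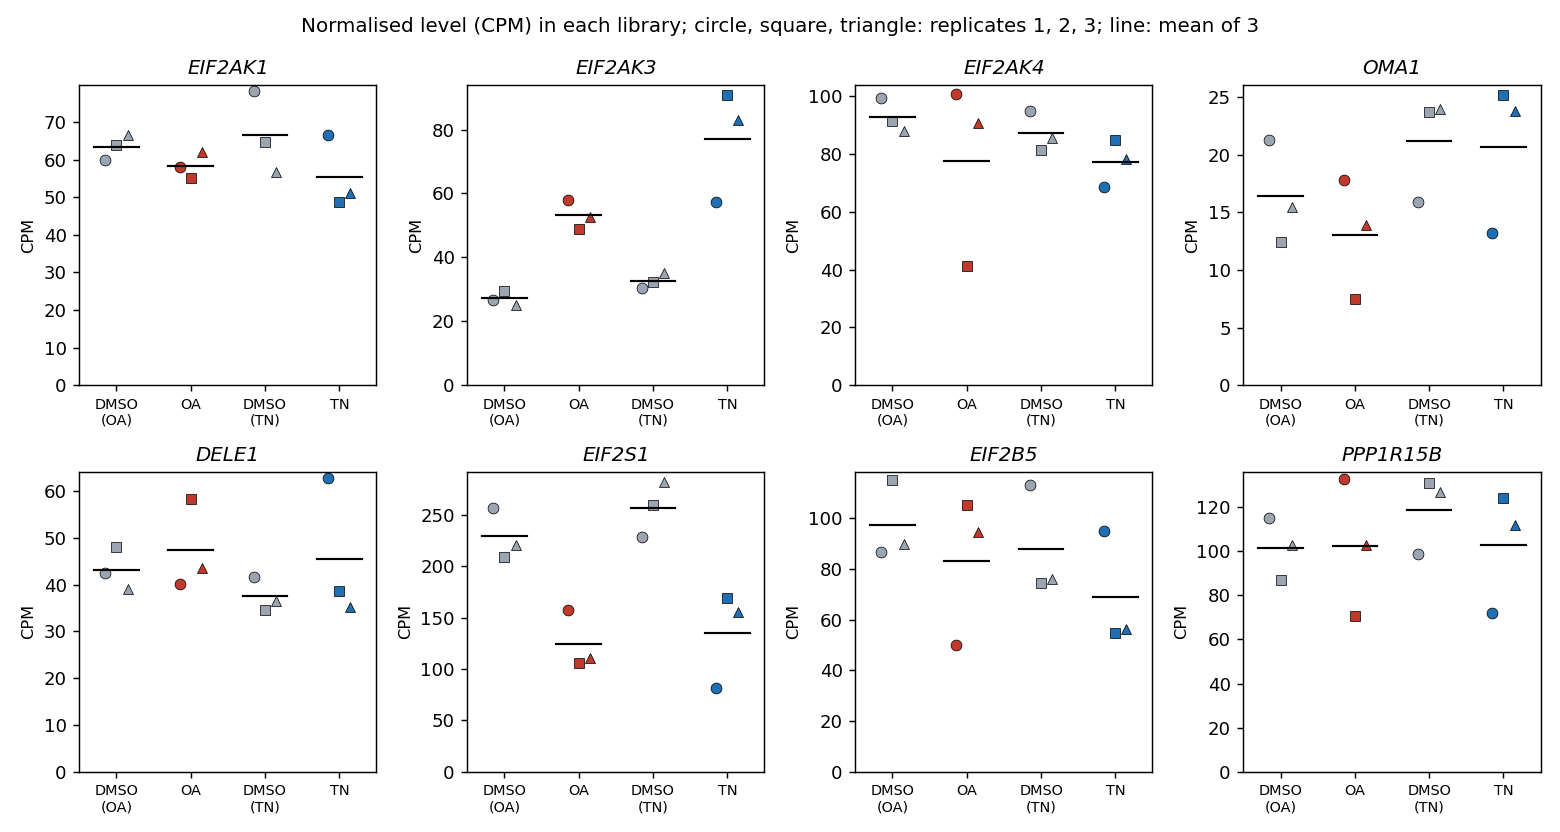
Normalised level in CPM (vertical axis, from 0) of each of the 8 genes in the 12 libraries, with a circle, square, and triangle for replicates 1, 2, and 3 and a line at the mean of 3. Only the EIF2AK3 and EIF2S1 panels show treated points clear of the DMSO points for both stressors, EIF2AK3 above and EIF2S1 below.

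The EIF2AK3 gene lies on the minus strand at chr2:88556741-88691518 (hg38, Gencode). The window printed above lies within these bounds, since the RefSeq start used for it differs from the outermost Gencode start. EIF2AK3 stood at 26.7, 29.6, and 25.1 CPM in the DMSO libraries of OA, replicates 1 to 3, and at 58.1, 49.0, and 52.7 CPM in the OA libraries. Every OA library lay above every DMSO library, and the means were 27.2 ± 2.27 and 53.3 ± 4.59 CPM (SD, n = 3 each). The log2 difference was 0.97 ± 0.23 (SE) with a 95% interval from 0.45 to 1.5, an unadjusted p of 0.0026, and an adjusted p of 0.0535 in edgeR, so that it missed the threshold. In the DMSO libraries of TN, EIF2AK3 stood at 30.3, 32.3, and 35.2 CPM, and in the TN libraries at 57.4, 90.7, and 82.9 CPM. All 3 TN libraries were again higher, with TN replicate 1 the lowest of them, and the means were 32.6 ± 2.42 and 77.0 ± 17.4 CPM (SD, n = 3 each). EIF2AK3 rose after TN by 1.24 ± 0.23 (SE) on the log2 scale, with a 95% interval from 0.69 to 1.79 and an adjusted p of 0.0243 in edgeR. In cultures measured in bulk, more RNA per cell cannot be told apart from more cells that hold it.

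The size of the EIF2AK3 difference after TN changed little when 1 library was left out, but the call was lost in 5 of 6 such fits. Without any 1 of the 3 DMSO libraries of TN or TN replicates 2 or 3, the log2 difference was 1.1 to 1.3 and the adjusted p in edgeR 0.0939 to 0.151, in fits that called 151 to 473 genes in place of 1009. Without TN replicate 1 the difference was 1.46 with an adjusted p of 0.00149 in edgeR, and with scaling to total counts it was 1.12 with an adjusted p of 0.0617 in edgeR. For OA, EIF2AK3 passed the threshold in 6 of 9 other fits, DESeq2, GC offsets, and a replicate block among them. The 9 fits gave log2 differences from 0.79 to 1.14 and adjusted p from 0.00241 to 0.128. The OA numbers were not taken as pairs, which limits the fits with the block. Without OA replicate 2 the adjusted p was 0.0395, and without any other single library of that comparison it was over the threshold, up to 0.278, in edgeR.

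EIF2AK1, the kinase that DELE1 activates, lies at chr7:6022247-6059175 on the minus strand. EIF2AK1 stood at 60.1, 64.0, and 66.6 CPM with DMSO and at 58.2, 55.1, and 62.0 CPM with OA, and at 78.5, 64.7, and 56.8 CPM with DMSO and 66.7, 48.7, and 51.3 CPM with TN. Treated and DMSO libraries overlapped in both comparisons. The log2 difference for EIF2AK1 was -0.12 ± 0.21 (SE) after OA, with an interval from -0.61 to 0.37 and an adjusted p of 0.764 in edgeR. After TN it was -0.26 ± 0.23, with an interval from -0.79 to 0.26 and an adjusted p of 0.531 in edgeR. A rise of EIF2AK1 mRNA beyond 0.37 on the log2 scale thus lay outside the interval for OA, the mitochondrial stressor.

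EIF2AK4, the kinase for amino acid shortage, lies at chr15:39934115-40035591 on the plus strand. EIF2AK4 stood at 99.4, 91.6, and 88.0 CPM with DMSO and at 101, 41.2, and 90.9 CPM with OA. The low value belonged to OA replicate 2, and the other OA libraries lay within or just above the DMSO range. Its log2 difference was -0.26 ± 0.34 (SE), with an interval from -1.04 to 0.52 and an adjusted p of 0.672 in edgeR, and it was 0.04 without OA replicate 2. For TN, EIF2AK4 stood at 95, 81.4, and 85.5 CPM with DMSO and at 68.6, 84.8, and 78.3 CPM with TN, a log2 difference of -0.18 ± 0.19 with an interval from -0.62 to 0.27 and an adjusted p of 0.634 in edgeR.

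OMA1, the inner membrane protease, lies at chr1:58415384-58546802 on the minus strand. OMA1 stood at 21.3, 12.4, and 15.5 CPM with DMSO and at 17.8, 7.48, and 13.9 CPM with OA. Its lowest value was again in OA replicate 2, and the groups overlapped. The log2 difference was -0.33 ± 0.38 (SE), with an interval from -1.19 to 0.54 and an adjusted p of 0.632 in edgeR, and it was -0.03 without OA replicate 2. In the TN experiment OMA1 stood at 15.9, 23.7, and 24.0 CPM with DMSO and at 13.2, 25.2, and 23.8 CPM with TN. Replicate 1 was the lowest library in either group, and the log2 difference was -0.03 ± 0.31, with an interval from -0.77 to 0.70 and an adjusted p of 0.965 in edgeR.

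DELE1, the substrate of OMA1 and messenger to the cytosol, lies at chr5:141923855-141942047 on the plus strand. DELE1 stood at 42.4, 48.1, and 39.1 CPM with DMSO and at 40.2, 58.2, and 43.5 CPM with OA, where OA replicate 2 was the highest. In log2 terms the difference was 0.13 ± 0.25 (SE), with an interval from -0.44 to 0.70 and an adjusted p of 0.785 in edgeR, and it turned to -0.10 with scaling to total counts and to -0.09 with GC offsets. For TN, DELE1 stood at 41.7, 34.6, and 36.5 CPM with DMSO and at 62.7, 38.6, and 35.1 CPM with TN. TN replicate 1 alone lay above the DMSO range, and the log2 difference of 0.27 ± 0.27, with an interval from -0.35 to 0.90 and an adjusted p of 0.59 in edgeR, became 0.01 without that library. In OA replicate 2 and TN replicate 1, the treated libraries that stood apart, OMA1 was at its lowest and DELE1 at its highest of the treated group. The same held without either stressor, in DMSO replicate 2 of OA and DMSO replicate 1 of TN within their groups. The deviations of the 2 treated libraries had Spearman coefficients of 0.516 and 0.71 with the GC content of genes. Those of the 2 DMSO libraries had 0.643 and 0.548. DELE1 has a GC content of 51.3% against 43.5% for OMA1. With GC offsets, the log2 differences of OMA1 and DELE1 were -0.25 and -0.09 after OA and 0.03 and 0.14 after TN. The part of GC content in the levels of those treated and DMSO libraries was not tested.

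EIF2S1, which encodes eIF2α, lies at chr14:67360328-67386516 on the plus strand. EIF2S1 stood at 257, 209, and 221 CPM with DMSO and at 157, 106, and 111 CPM with OA. Every OA library lay below every DMSO library, with means of 229 ± 25.2 and 125 ± 28.6 CPM (SD, n = 3 each). The log2 difference was -0.88 ± 0.25 (SE), with an interval from -1.45 to -0.31, an unadjusted p of 0.00715, and an adjusted p of 0.0829 in edgeR. In the TN experiment EIF2S1 stood at 228, 260, and 282 CPM with DMSO and at 82.0, 169, and 155 CPM with TN. The TN libraries were all lower, TN replicate 1 most of all, with means of 257 ± 27.1 and 135 ± 46.6 CPM (SD, n = 3 each). Its log2 difference was -0.93 ± 0.29, with an interval from -1.61 to -0.24, an unadjusted p of 0.015, and an adjusted p of 0.106 in edgeR.

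The difference in EIF2S1 did not pass the threshold as fitted, and it passed in 3 of 9 other fits for each stressor. For OA these were DESeq2, the replicate block, and GC offsets with the block, although the OA numbers were not taken as pairs. With the replicate numbers as a block, EIF2S1 fell after TN by 0.99 on the log2 scale with an adjusted p of 0.00691 in edgeR. With GC offsets, the log2 difference was -0.77 with an adjusted p of 0.0104 after TN, and -0.48 with an adjusted p of 0.184 after OA, both in edgeR. With GC offsets and the block together, it was -0.77 with an adjusted p of 0.000377 after TN and -0.49 with an adjusted p of 0.0431 after OA in edgeR. Without OA replicate 1 the log2 difference was -1.1 with an adjusted p of 0.0397, and without TN replicate 1 it was -0.62 with an adjusted p of 0.0386 in edgeR. EIF2S1 has a GC content of 38.3% in its longest transcript, the lowest among the 8 genes, whose values reached 51.3% for DELE1.

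EIF2B5, the catalytic subunit of the exchange factor eIF2B, lies at chr3:184135038-184146127 on the plus strand. EIF2B5 stood at 86.7, 115, and 89.7 CPM with DMSO and at 49.9, 105, and 94.5 CPM with OA, where OA replicate 1 alone was below the DMSO range. The log2 difference was -0.23 ± 0.32 (SE), with an interval from -0.95 to 0.50 and an adjusted p of 0.692 in edgeR, and it was 0.02 without OA replicate 1. For TN, EIF2B5 stood at 113, 74.3, and 76.0 CPM with DMSO and at 95, 54.7, and 56.4 CPM with TN. Replicate 1 was the highest in either group, and each TN library was below the DMSO library of the same number. In log2 terms the difference was -0.35 ± 0.30, with an interval from -1.05 to 0.34 and an adjusted p of 0.526 in edgeR, and the adjusted p was 0.00712 only with GC offsets and the replicate block together. With 1 library left out, the log2 difference ran from -0.62 without TN replicate 1 to -0.14 without DMSO replicate 1 of TN.

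PPP1R15B, the constitutive guide of the eIF2α phosphatase, lies at chr1:204396492-204411887 on the minus strand. PPP1R15B stood at 115, 87.0, and 103 CPM with DMSO and at 133, 70.8, and 103 CPM with OA, which placed one OA library above, one below, and one within the DMSO range. The log2 difference was 0.01 ± 0.28 (SE), with an interval from -0.64 to 0.66 and an adjusted p of 0.985 in edgeR. In the TN experiment PPP1R15B stood at 98.8, 131, and 127 CPM with DMSO and at 72.0, 124, and 112 CPM with TN, a log2 difference of -0.21 ± 0.26 with an interval from -0.82 to 0.40 and an adjusted p of 0.676 in edgeR. Its window with the ATF4-type letters, printed above, thus stood before a gene whose interval included no change after either stressor.

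The stress-inducible paralog PPP1R15A (GADD34), itself a known ATF4 target, passed the test after OA. PPP1R15A stood at 20.2, 26.0, and 20.5 CPM with DMSO and at 87.0, 595, and 93.6 CPM with OA. All OA libraries were higher, OA replicate 2 far above the others. PPP1R15A rose by 3.54 ± 0.76 (SE) on the log2 scale with an adjusted p of 0.0428 in edgeR, and by 2.01 with an adjusted p of 0.00752 without OA replicate 2. The call was lost without OA replicate 3 or any 1 of the 3 DMSO libraries, with log2 differences of 3.48 to 3.92 and adjusted p from 0.0673 to 0.196 in edgeR. For TN, PPP1R15A stood at 26.8, 87.7, and 74.6 CPM with DMSO and at 116, 66.9, and 63.0 CPM with TN. DMSO replicates 2 and 3 lay above TN replicates 2 and 3, and the log2 difference was 0.38 ± 0.46, with an interval from -0.68 to 1.44 and an adjusted p of 0.668 in edgeR. Without DMSO replicate 1 of TN, the library that stood apart over all genes, it was 0.01, and without DMSO replicate 2 of TN it was 0.68. For PPP1R15A, however, DMSO replicate 1 of TN was near the DMSO libraries of OA, which were scaled separately. DMSO replicates 2 and 3 of TN were the high ones. The same-numbered TN pairs differed by 2.11, -0.39, and -0.24 on the log2 scale.

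To ask whether the mitochondrial and the ER stressor differed, the OA change minus the TN change was tested over all 12 libraries. None of the 8 genes passed, 0 of 8 also at an unadjusted p under 0.05, and edgeR called 0 of 15429 genes, a background of 0.0%, with 348 (2.26%) at an unadjusted p under 0.05 and 2 calls by DESeq2. For EIF2AK3 the difference of the changes was -0.35 ± 0.33 (SE) on the log2 scale, with an interval from -1.08 to 0.38 and an adjusted p of 1 in edgeR. For EIF2S1 it was -0.03 with an interval from -0.95 to 0.88, for EIF2AK1 0.09 with an interval from -0.54 to 0.71, and for EIF2AK4 -0.14 with an interval from -1.09 to 0.82. OMA1 had the widest interval of the 8 genes, from -1.54 to 0.82 around -0.36, and DELE1 had one from -0.91 to 0.49 around -0.21. The values were 0.05 with an interval from -0.86 to 0.97 for EIF2B5, and 0.15 with an interval from -0.78 to 1.08 for PPP1R15B. Each of the 8 intervals included differences of at least 0.71 in size, so equal responses were not shown. PPP1R15A had a difference of 3.02 ± 0.90, with an unadjusted p of 0.00565 and an adjusted p of 1 in edgeR. Without a filter on low counts it was 3.13 with an adjusted p of 1.08e-08, and without OA replicate 2 it was 1.62 with an adjusted p of 1, both in edgeR. The fit without a filter was the only 1 of 8 other fits that called PPP1R15A between stressors. Of the 12 fits without 1 library, 0 called it.

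**Figure D2:**
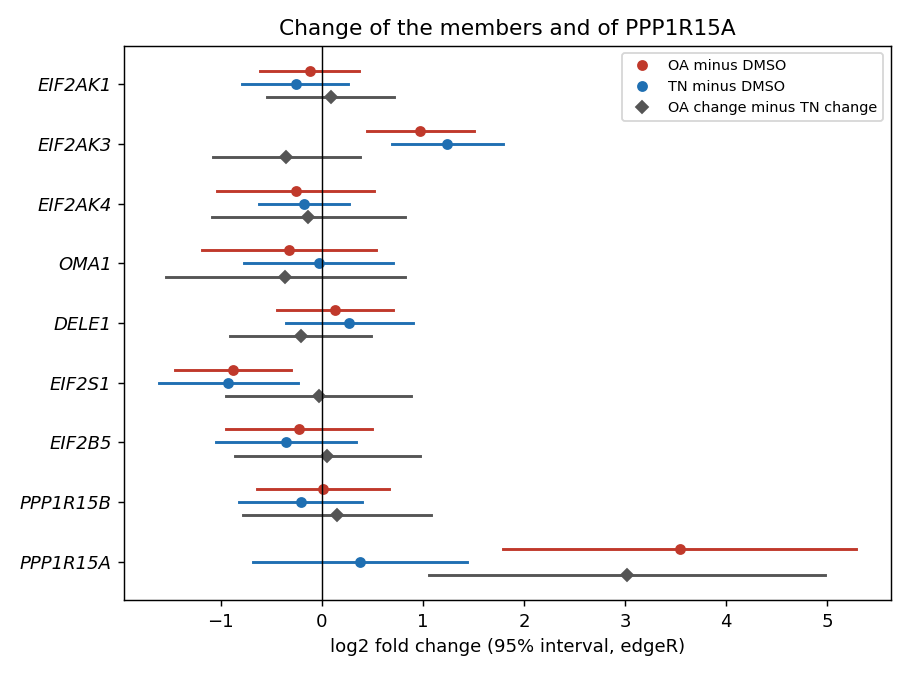
Log2 fold change with its 95% interval from edgeR (horizontal axis) for the 8 genes and PPP1R15A, for OA minus DMSO, TN minus DMSO, and the OA change minus the TN change. The EIF2AK3 intervals lie above 0 and the EIF2S1 intervals below 0 for both stressors, whereas the intervals of the other 6 genes cross 0 in all comparisons.

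Ratios of a pair of genes within one library do not depend on how libraries are scaled, and 6 ratios were compared for both stressors by exact two-sided permutation, for which 0.1 is the smallest p of 3 against 3. The log2 ratio of EIF2AK3 to EIF2AK1 counts was -1.17, -1.11, and -1.41 with DMSO and -0.002, -0.17, and -0.24 with OA, a difference of 1.09 without overlap (exact permutation p = 0.1, adjusted p = 0.24 over 12 tests). In the TN experiment it was -1.37, -1.0, and -0.69 with DMSO and -0.22, 0.90, and 0.69 with TN, a difference of 1.48 without overlap (exact permutation p = 0.1, adjusted p = 0.24). EIF2AK3 counts thus ran from well under the EIF2AK1 counts of the same library to about their number with OA, and to more than their number in TN replicates 2 and 3. The ratio of EIF2AK3 to EIF2AK4 also moved without overlap, by 1.33 after OA and by 1.39 after TN (exact permutation p = 0.1, adjusted p = 0.24 for each). Within the same-numbered TN pairs, EIF2AK3 to EIF2AK1 differed by 1.15, 1.9, and 1.38, and EIF2AK3 to EIF2AK4 by 1.39, 1.43, and 1.36. The exact sign-flip permutation p was 0.25 for each, the smallest that 3 pairs allow. Of the other ratios, EIF2AK4 to EIF2AK1 differed by -0.24 and 0.08, OMA1 to DELE1 by -0.50 and -0.30, and EIF2S1 to EIF2B5 by -0.61 and -0.62 after OA and TN, all with overlap and with exact permutation p from 0.4 to 0.9. The OMA1 to DELE1 difference came to 0.02 without OA replicate 2 and to 0.26 without TN replicate 1. Within the same-numbered TN pairs, the ratio of EIF2S1 to EIF2B5 was lower in 3 of 3, with differences of -1.23, -0.18, and -0.43 (exact sign-flip permutation p = 0.25, the smallest that 3 pairs allow). Its difference came to -0.03 without TN replicate 1, and after OA to -0.30 without OA replicate 2 and to -1.12 without OA replicate 1. PPP1R15A to PPP1R15B moved from -2.51, -1.74, and -2.32 with DMSO to -0.61, 3.07, and -0.14 with OA, a difference of 2.96 (exact permutation p = 0.1, adjusted p = 0.24), and by 0.73 with overlap after TN (exact permutation p = 0.6). Without OA replicate 2 the difference after OA was 1.82. After TN it was 0.22 without TN replicate 1, 0.33 without DMSO replicate 1 of TN, and 1.01 without TN replicate 2. The same-numbered TN pairs differed by 2.58, -0.31, and -0.06.

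**Figure D3:**
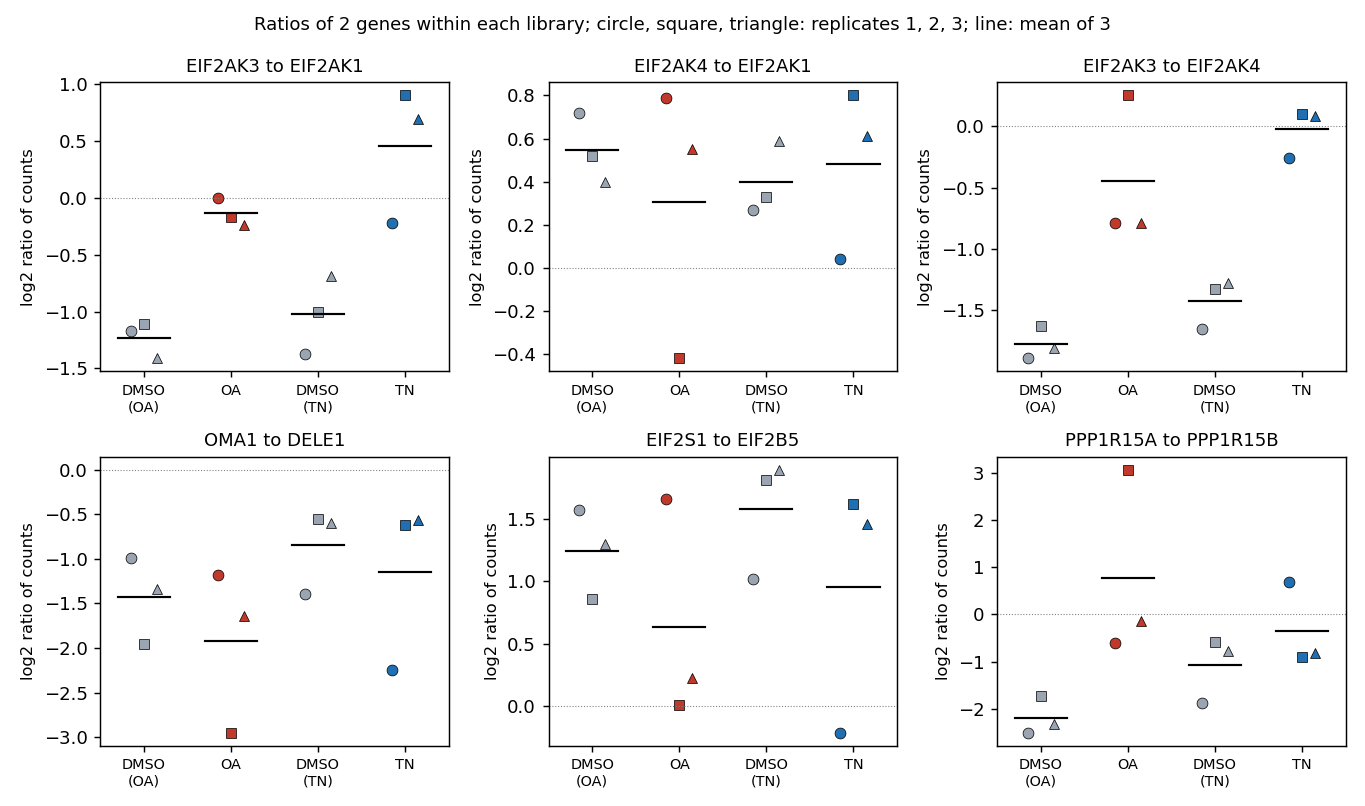
Log2 ratio of the counts of a pair of genes in each library (vertical axis), with a circle, square, and triangle for replicates 1, 2, and 3 and a line at the mean of 3. Treated and DMSO points are apart for EIF2AK3 to EIF2AK1 and EIF2AK3 to EIF2AK4 with both stressors, and for PPP1R15A to PPP1R15B with OA only, where OA replicate 2 reached 3.07.

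Levels of the 8 genes were ordered by counts per kilobase of exon, scaled so that all genes of a library add up to 1000000. In the 6 DMSO libraries EIF2S1 led with 89.0 ± 18.5 (SD, n = 6) and lay above the other 7 genes in every DMSO library. EIF2B5 with 24.4 ± 2.22, PPP1R15B with 23.1 ± 5.81, and EIF2AK1 with 22.8 ± 2.33 overlapped and could not be ordered. EIF2AK4 had 14.5 ± 1.74, and its highest library of 17.7 lay below the lowest libraries of EIF2AK1 (19.1) and EIF2B5 (21.4) but above the lowest of PPP1R15B (15.2), although PPP1R15B was above EIF2AK4 within each of the 6 libraries. DELE1 with 12.9 ± 1.14 overlapped EIF2AK4, and OMA1 with 9.98 ± 3.45 overlapped DELE1. EIF2AK3 was lowest with 2.80 ± 0.489, and its highest DMSO library of 3.45 lay below the lowest OMA1 library of 5.46. The order depends on the length used, and for EIF2AK3 the annotated exons cover 20691 bases but its longest transcript 4724 bases. With the longest transcript as length, EIF2AK3 reached 10.2 ± 1.74, with libraries from 8.63 to 12.6 that overlapped those of OMA1, the lowest of which was 8.12. EIF2AK4 with 26.2 ± 3.0 then overlapped EIF2AK1 with 23.7 ± 2.34, and its lowest library of 22.8 lay above the highest of DELE1 (15.3). The lowest EIF2B5 library of 29.0 then lay above the highest EIF2AK1 library of 26.0. On this scale the short and abundant RN7SL1 takes up much of the total, so levels in treated libraries were not compared with DMSO on it.

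**Figure D4:**
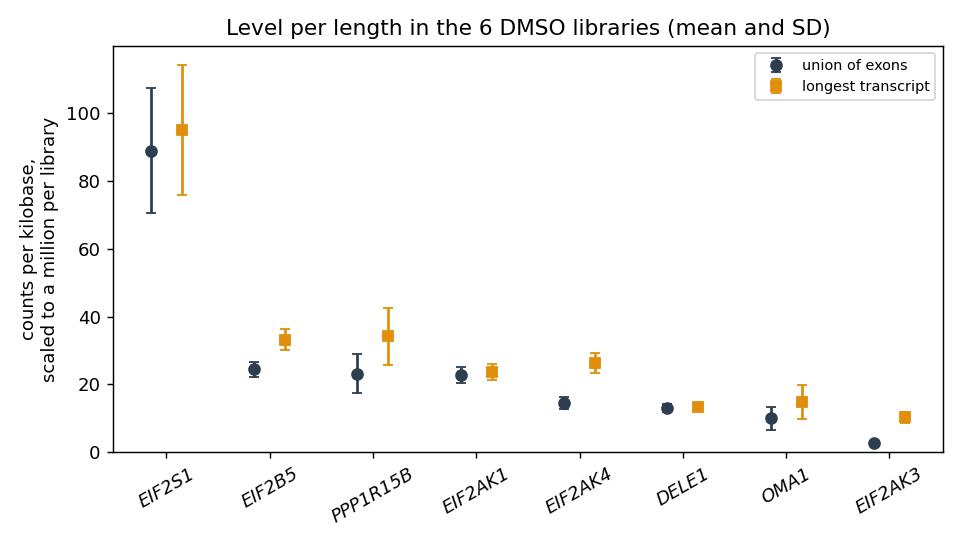
Level per length of the 8 genes in the 6 DMSO libraries (vertical axis, counts per kilobase scaled to a total of 1000000 per library), as mean and SD, with the union of exons or the longest transcript as length. EIF2S1 is highest with either length, and EIF2AK3 rises from 2.80 to 10.2 when the longest transcript is used.

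Genes around the 8 were described in 4 lists, whose counts stand against 2.76% of all tested genes higher and 1.72% lower after OA, and 3.65% and 3.34% after TN, or 11.8% and 15.3% with the replicate block for TN. Of the 6 other subunits of eIF2 and eIF2B, 0 were called after OA and 1 fell after TN, EIF2B1, the regulatory subunit to which phosphorylated eIF2 binds. EIF2B1 stood at 74.9, 50.6, and 49.2 CPM with DMSO and at 25.5, 30.1, and 27.2 CPM with TN, all TN libraries being lower, and it fell by 1.08 ± 0.24 (SE) on the log2 scale with an adjusted p of 0.0394 in edgeR. After OA, EIF2B1 stood at 33.5, 36.2, and 32.7 CPM against 58.9, 71.1, and 56.0 CPM with DMSO, a log2 difference of -0.86 ± 0.23 with an adjusted p of 0.0714 in edgeR. EIF2S3, the tRNA-binding subunit of eIF2, had a log2 difference of -0.51 with an adjusted p of 0.571 after OA, and EIF2B3, another eIF2B subunit, one of -0.67 with an adjusted p of 0.157 after TN, both in edgeR. With the replicate block EIF2B3 also fell after TN, by 0.71 with an adjusted p of 0.0332 in edgeR, so that 2 of the 6 were lower. The median log2 difference of the list was -0.22 after OA and -0.21 after TN, that of the 8 genes -0.18 and -0.19, and that of all tested genes -0.02 and -0.03.

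Among 12 partners of the kinases and the phosphatase, 2 rose after OA (HSPA5 and PPP1R15A) and 0 fell, while 1 rose (HSPA5) and 1 fell (HSP90AA1) after TN. HSPA5, the ER chaperone that binds the lumenal side of EIF2AK3, stood at 165, 138, and 157 CPM with DMSO and at 604, 2080, and 577 CPM with OA. It rose by 2.83 ± 0.52 (SE) on the log2 scale with an adjusted p of 0.0301 in edgeR. The value of 2080 CPM was that of OA replicate 2, which stood apart. After TN, HSPA5 rose from 154, 172, and 162 CPM to 1410, 1190, and 1040 CPM, by 2.90 ± 0.21 with an adjusted p of 0.0024 in edgeR. HSP90AA1, a chaperone on which EIF2AK1 depends and which has many processed copies in the genome, stood at 764, 849, and 900 CPM with DMSO and at 142, 260, and 223 CPM with TN, and fell by 2.01 ± 0.26 with an adjusted p of 0.0078 in edgeR. After OA its log2 difference was -1.9 with an adjusted p of 0.0819 in edgeR. DNAJC3, an ER co-chaperone once described as an inhibitor of the kinases, was named by the test between stressors, with a difference of -2.0, an unadjusted p of 0.0337, and an adjusted p of 1 in edgeR. EIF2AK2 (PKR), the kinase for double-stranded RNA, was named after its values were seen. EIF2AK2 stood at 49.0, 18.9, and 31.8 CPM with DMSO and 41.4, 4.99, and 15.2 CPM with OA, and at 24.9, 179, and 197 CPM with DMSO and 13.5, 92.6, and 87.5 CPM with TN. Treated and DMSO libraries overlapped in both comparisons. The log2 difference was -0.69 after OA (adjusted p = 0.57, edgeR) and -1.05 after TN (adjusted p = 0.51, edgeR). Each TN library lay below the DMSO library of its number, and with the replicate block EIF2AK2 fell after TN by 1.01 ± 0.15 with an adjusted p of 0.0024 in edgeR. With that block 2 partners rose after TN (HSPA5 and DNAJC3) and 5 fell (HSP90AA1, HSP90AB1, EIF2AK2, PPP1CC, and GCN1).

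Of 12 mitochondrial genes listed around OMA1, not all of them of the inner membrane, 0 were called after either stressor, and their median log2 difference was -0.22 after OA and -0.29 after TN. The lowest p values belonged to PGAM5, a mitochondrial phosphatase, with -0.86 and an adjusted p of 0.0889, and PHB, a prohibitin, with -0.90 and an adjusted p of 0.102, after OA in edgeR. After TN they belonged to AFG3L2, a protease subunit, with -0.65 and an adjusted p of 0.0807, and to PGAM5 with -0.87 and an adjusted p of 0.121 in edgeR. With the replicate block 4 of the 12 fell after TN (AFG3L2, ATAD3A, PGAM5, and PHB) and LONP1, a matrix protease, rose, with adjusted p for PHB of 0.00319 and for LONP1 of 0.0074 in edgeR. ATF4 and genes known as its targets lay downstream, and 10 of the 12 tested among 14 listed rose after each stressor, with a median log2 difference of 2.86 after OA and 2.69 after TN. This list was drawn up with results of these libraries known, so its count is no independent evidence of a direction. ATF4 rose by 1.38 with an adjusted p of 0.028 after OA and by 1.46 with an adjusted p of 0.00906 after TN in edgeR. DDIT3, which encodes the transcription factor CHOP, rose by 5.23 with an adjusted p of 0.01 after OA and by 4.33 with an adjusted p of 0.0024 after TN in edgeR. With OA it stood at 220, 574, and 179 CPM, highest in OA replicate 2, against 8.39, 9.68, and 7.73 CPM with DMSO. CHAC1, a glutathione-degrading enzyme, rose by 4.31 after OA (adjusted p = 0.00437, edgeR) and by 3.91 after TN (adjusted p = 0.00604, edgeR). PCK2, the mitochondrial PEP carboxykinase, rose by 2.65 after OA (adjusted p = 0.0116, edgeR) and by 2.77 after TN (adjusted p = 0.00301, edgeR). ATF3 stood at 14.5, 13.3, and 14.5 CPM with DMSO and at 72.1, 337, and 66.0 CPM with OA, highest in OA replicate 2, which stood apart. Between stressors the lowest p of that list was that of ATF3, with a difference of 2.40, an unadjusted p of 0.00827, and an adjusted p of 1 in edgeR. For the other genes with the lowest p of their lists in this test, the log2 change after OA minus that after TN was 0.79 for DDIT3, 0.48 for EIF2B3, -0.49 for EIF2S2, -0.20 for PHB, and 0.21 for LONP1, all with an adjusted p of 1 in edgeR.

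**Figure D5:**
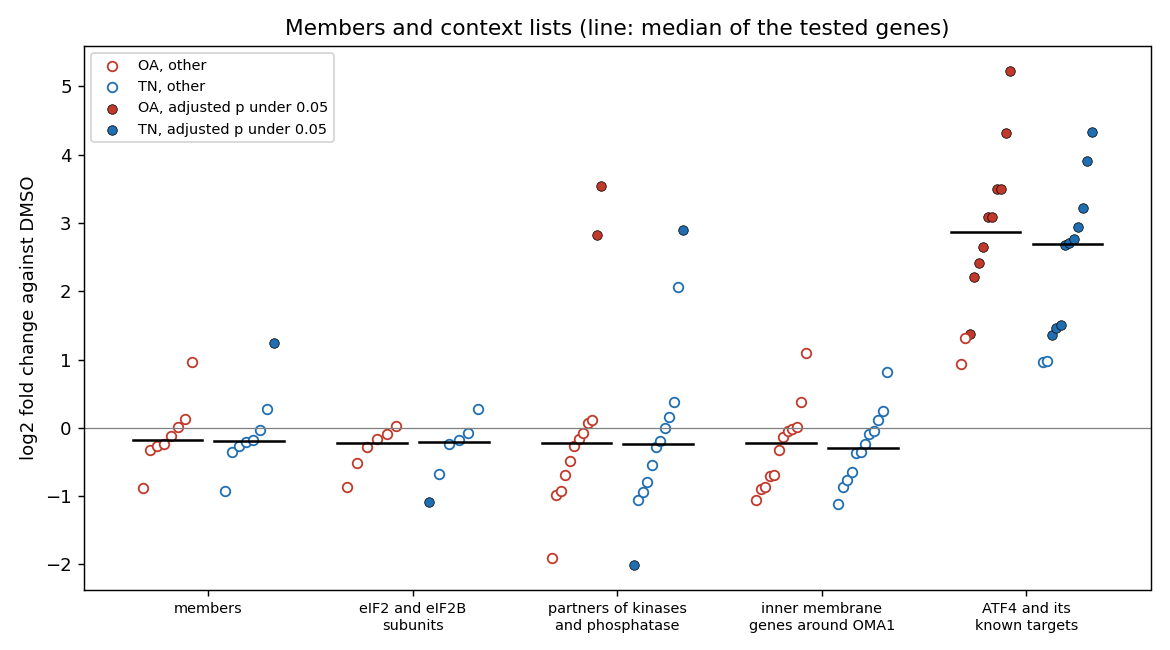
Log2 fold change against DMSO (vertical axis) of every tested gene of the 8 and of the 4 lists, with OA in red and TN in blue, filled points for an adjusted p under 0.05 in edgeR, and a line at each median. The ATF4 list sits around medians of 2.86 and 2.69, while the 8 genes and the other lists sit around medians between -0.29 and -0.18.

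For each of the 8 genes, the genes with the most similar pattern were sought among 8994 genes of at least 10 CPM, by the Pearson correlation of log2 CPM over the 12 libraries after the mean of each stressor's 6 libraries was taken off. The points share library depth, treatment, and the GC-related deviations of the libraries, so the coefficients are a description. EIF2AK3 was most like IDH1 (0.976), ESRP1 (0.975), and TES (0.973), whose GC content of 41.2% to 43.1% is near its own 42.5%. Among the genes most like OMA1 were PIK3CA (0.99) and PNRC2 (0.989), and EIF2S1 was most like PSMD14, MRPL13, and DCUN1D5 (0.984 each), genes with a GC content of 37.4% or less. DELE1 was most like MIRLET7BHG (0.964), COQ8B (0.963), and AGAP2 (0.963), with a GC content from 52.3% to 65.2%. EIF2AK1, with a GC content of 46.6%, was most like SMARCA4 (0.955), CSNK2A2 (0.951), and ADM (0.949), whose GC content of 61.0%, 41.6%, and 58.5% lay on both sides of its own. EIF2AK4 was most like TOMM20 (0.979), CCNG1 (0.969), and DCTN4 (0.962), whose GC content of 40.5%, 38.0%, and 41.4% lay below its own 47.5%. EIF2B5 was most like ERAL1 (0.977), DPH7 (0.976), and MRPL14 (0.974), and PPP1R15B like F2RL1 (0.985), CLDND1 (0.979), and FBXO11 (0.973). The GC content was 55.1% to 55.3% for the genes like EIF2B5 (49.9%), and 44.1%, 38.5%, and 37.3% for those like PPP1R15B (43.4%).

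Some exons of the 8 genes are shared with other annotated genes, and the sources do not say which strand column was kept for the counts. The labels name a kit for stranded total RNA, whereas the paper speaks of mRNA-seq, so the RNA selected for the libraries, on which the RN7SL1 share also depends, is uncertain. EIF2AK1 shares 532 exon bases, 9.69% of its exons, with AIMP2 on the opposite strand, which had between 912 and 2838 counts, so a part of either gene's reads could belong to the other if strand was not used. EIF2AK3 shares 781 bases with an antisense lncRNA that had at most 4 counts, and OMA1 shares 257 bases with DAB1 on the same strand, which had 0 counts in all libraries. EIF2B5 shares 68 bases with EIF2B5-DT, which had 5 to 26 counts. PPP1R15B shares 523 bases with a lncRNA on the opposite strand that was not analysed here.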

How the data were processed

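The authors aligned the reads of the 12 libraries to hg38 with STAR, counted them per gene with a Gencode annotation, and deposited raw counts for each stressor. The deposited tables of the authors' own DESeq2 comparisons (mean level, log2 fold change, standard error, statistic, p-value, and adjusted p-value) were not used. Counts were normalized by TMM, filtered with filterByExpr, and tested two-sided with edgeR 4.0.16 (quasi-likelihood, Benjamini-Hochberg over all tested genes, threshold 0.05) in R 4.3.3, separately for OA and TN. The difference between stressors was a contrast over all 12 libraries. CPM are on TMM library sizes. Ratios used a prior count of 0.5 and exact permutation, and sign flips within TN pairs were added after the data were seen. Lengths and GC content came from Gencode 44, which held 99.7% of the gene identifiers. The test was run on simulated counts with 200 changed genes. Most 2-fold changes in them were not called, so the lack of a call does not by itself exclude a change of that size. The 95% intervals bear on this gene by gene. Those of EIF2AK1, DELE1, and PPP1R15B lay within a 2-fold change in either direction after both stressors. Those of EIF2AK4 and OMA1 after OA, and of EIF2B5 after TN, reached beyond it.

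Named were all 8 genes, PPP1R15A, the 2 genes with the lowest p of each list in each comparison, and the 3 most similar genes. Members and lists were chosen with earlier results of these data known. Same-numbered TN and DMSO libraries deviated together (correlations 0.639, 0.409, and 0.427), and the TN numbers were taken as pairs. TN replicate 2 correlated at 0.436 with DMSO replicate 3, and TN replicate 3 at 0.378 with DMSO replicate 2. Deviations were taken from the mean of 3 replicates, and replicate 1 stood apart in both groups. This check therefore cannot decide how replicates 2 and 3 pair, and their pairing is an assumption. The fit without a block stayed the main one, and the block raised the TN calls from 1009 to 3915. No libraries were duplicates, since the chi-square per gene was at least 6.25. Library totals and 3 replicates limit the precision. Alternatives were DESeq2 1.42.0, its size factors, total counts, dropping the filter, a minimum of 10 counts per library, the block, GC offsets, 1 fit of all libraries, and fits without each library. A gene that the naming rule picked by its likeness to OMA1 is not reported here.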

Additional observations from a re-analysis of the deposited data

How the results depend on the processing

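After OA, 658 genes and 0 of the 8 genes were called in edgeR. DESeq2 called 1927 and 2, the fit without a filter 1572 genes, the strict filter 1 of the 8, the replicate block 3914 and 2, GC offsets 2461 and 1, both together 3817 and 2, and the fit of all libraries 1681 and 1. After TN, 1009 and 1 were called in edgeR, against 2162 genes by DESeq2, 1648 without a filter, 3915 and 2 with the block, 3335 and 2 with GC offsets, 5471 and 3 with both, and 0 of the 8 with total counts. Between stressors, DESeq2 called 2 genes and the fit without a filter 25, against 0. Leaving out 1 library gave 3 to 1179 genes and 0 to 1 of the 8 after OA, 151 to 2361 and 0 to 2 after TN, and 0 to 4 genes between stressors. Scaling to total counts moved the median log2 difference of all genes to -0.23 (OA) and -0.18 (TN) and the share of higher genes among the calls from 61.6% to 47.1% and from 52.2% to 37.7%. That share was also lower for OA and TN with GC offsets (46.0% and 43.1%), the block (43.8% and 43.6%), and both together (42.7% and 41.8%).

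None of the log2 differences that changed sign had passed the threshold. After OA, DELE1 came to -0.10 with total counts and to -0.09 with GC offsets, with or without the block, and PPP1R15B to -0.14 with total counts, -0.03 with the block, and -0.04 in the fit of all libraries. After TN, OMA1 came to 0.03 with GC offsets and to 0.02 with the block added. Between stressors, EIF2S1 came to 0.04 with DESeq2 or its size factors, 0.06 without a filter, 0.02 with the block, 0.20 with GC offsets, and 0.19 with both, EIF2B5 to -0.07 with GC offsets and -0.09 with both, and EIF2AK1 to -0.001 with both. The causes were not tested. Without 1 library, OA values ran from -0.51 to 0.04 for EIF2AK4, -0.05 to 0.26 for DELE1, -0.45 to 0.02 for EIF2B5, and -0.24 to 0.23 for PPP1R15B, and TN values from -0.20 to 0.26 for OMA1 and -0.38 to 0.04 for PPP1R15B. Between stressors they ran from -0.09 to 0.30 for EIF2AK1, -0.43 to 0.19 for EIF2AK4, -0.33 to 0.16 for DELE1, -0.31 to 0.18 for EIF2S1, -0.21 to 0.43 for EIF2B5, and -0.15 to 0.39 for PPP1R15B. The log2 ratio of EIF2AK4 to EIF2AK1 differed by -0.48 to 0.12 after OA and by -0.07 to 0.31 after TN, and that of OMA1 to DELE1 by -0.87 to 0.02 and by -0.59 to 0.26.

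With the longest transcript as length, the level per length was 10.2 for EIF2AK3, 26.2 for EIF2AK4, 14.7 for OMA1, 33.2 for EIF2B5, and 34.2 for PPP1R15B. EIF2AK3 kept its direction after both stressors in all fits run, with an unadjusted p under 0.05 in each in edgeR or DESeq2, and EIF2S1 kept its direction as well. For OA, same-numbered libraries correlated at 0.625, 0.539, and 0.0908, the last too low to take the numbers as pairs, and DMSO replicate 3 correlated more with OA replicate 1 (0.153). OMA1 in OA replicate 2 had the lowest depth, with 75 counts.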
